A study of Mus musculus with 10 samples.

Results

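The HoxA and HoxB genes described here are 9 homeobox genes whose transcripts were measured in mouse hematopoietic stem cells (HSCs), the cells of the bone marrow that renew all blood lineages. They were taken by name from the deposited table of 20270 genes: Hoxa5, Hoxa7, Hoxa9 and Hoxa10 from the HoxA cluster, and Hoxb2, Hoxb3, Hoxb4, Hoxb5 and Hoxb6 from the HoxB cluster. All 9 were present in the table, and all 9 passed the filter on low values that kept 15143 genes. RNA sequencing covered 10 libraries of C57BL/6 HSCs purified by flow cytometry from recipients of lineage-depleted marrow, a graft from which mature blood cells had been removed. The donor marrow was labelled Id1-/- (KO) or Id1+/+ (WT). The 4 groups were KO-labelled stressed (2 libraries), WT-labelled stressed (2), KO-labelled normal (3) and WT-labelled normal (3). All cells of every group came from transplant recipients, at 4 weeks after transplantation according to the sample labels and at 6 weeks according to the series design. The labels do not say what stressed and normal stand for. They also do not say whether the libraries of a group, lettered A to C, came from separate animals, so the p-values measure only the spread between these libraries.

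Hox genes encode transcription factors that bind DNA through a homeodomain, usually together with partners of the TALE family such as MEIS1 and PBX proteins. They lie in clusters, and genes at the low-numbered end of a cluster are generally active earlier and further forward in the embryo than genes at the other end. In blood, members of the HoxA and HoxB clusters are active in stem and progenitor cells and are shut down as cells mature. Their transcription is maintained by MLL-type histone methyltransferases and restrained by Polycomb complexes.

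Library depth was estimated at 25700000 to 33000000 reads, so that a level of 1 CPM (a read count scaled to a common library total, here in libraries whose values also share nearly the same distribution) stands for 25.7 to 33.0 reads. All 16 HSC marker genes were above 1 CPM in all 10 libraries. Their summed level was 4568 to 4742 CPM in KO-labelled stressed, 4972 to 5097 in WT-labelled stressed, 5159 to 5451 in KO-labelled normal and 5849 to 6246 in WT-labelled normal libraries. Id1, the targeted gene, encodes an inhibitor of the E-box binding E proteins. It stood at 9.06 and 8.44 CPM in KO-labelled stressed libraries, against 1.28 and 4.39 CPM in the WT-labelled ones. In normal libraries it stood at 13.2, 10.6 and 9.62 CPM in the KO-labelled and at 1.35, 1.72 and 3.17 CPM in the WT-labelled ones. This is not the order that loss of the entire Id1 transcript would give, and a level per gene cannot show which exons were read, so every direction of KO against WT given here follows the labels. The main axis of variation (19.0% of the variance) separated stressed from normal libraries. The next axis (13.1%) separated the stressed libraries by label. On it the KO-labelled ones lay at 47.2 and 60.8 and the WT-labelled ones at -83.0 (A) and -20.3 (B), with the normal libraries between. On a further axis (12.5%), KO-labelled normal library A lay far from the other 9.

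Levels were set side by side between genes as CPM per kilobase of annotated exon, averaged over the 10 libraries. The clusters are given in the coordinates of build mm10 with GENCODE vM21 gene models. The HoxA cluster lies on chromosome 6 (genes on the minus strand) and the HoxB cluster on chromosome 11 (genes on the plus strand). In HoxA, the highest levels lay in a block of neighbours, Hoxa7, Hoxa9 and Hoxa10, on the high-numbered side of the other measured genes. In HoxB, the highest gene lay in the middle of the cluster, at Hoxb5.

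Hoxa9 (ENSMUSG00000038227.15, chromosome 6, 52223100 to 52231089) averaged 15.0 CPM per kb, at percentile 71.2 of the 15109 tested genes with a known exon length. It encodes a factor needed for full stem cell function in mouse marrow and is a well-known driver of MLL-rearranged leukemia. Hoxa10 (ENSMUSG00000000938.11, 52231197 to 52240854) averaged 14.0 CPM per kb and Hoxa7 (ENSMUSG00000038236.8, 52214491 to 52221854) 12.8 CPM per kb. These 3 neighbours could not be ranked beyond their spread: Hoxa9 was above Hoxa10 in 6 of 10 libraries, and Hoxa10 was above Hoxa7 in 6 of 10. Hoxa5 (ENSMUSG00000038253.6, 52201754 to 52204587), which encodes a factor with roles in lung and skeletal patterning and in myeloid and erythroid lineage choice, averaged 6.77 CPM per kb. It was below Hoxa7 in 10 of 10 libraries, with no overlap of their ranges.

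All HoxB members were below all HoxA members on this scale. Hoxb5 (ENSMUSG00000038700.4, chromosome 11, 96303336 to 96306121), used as a marker of long-term HSCs in mouse, averaged 2.92 CPM per kb and was below Hoxa5 and above Hoxb6 in every library. Hoxb6 (ENSMUSG00000000690.5, 96292476 to 96301569) averaged 1.19 CPM per kb. Hoxb4 (ENSMUSG00000038692.8, 96318267 to 96321638), whose forced expression expands HSCs, averaged 0.861, and Hoxb2 (ENSMUSG00000075588.6, 96350525 to 96354012) 0.853 CPM per kb. Neither step of this order stood clear of the spread, since Hoxb6 was above Hoxb4 in 9 of 10 libraries with overlapping ranges and Hoxb4 was above Hoxb2 in 5 of 10. Hoxb3 (ENSMUSG00000048763.11, 96323326 to 96347930) was lowest in every library and averaged 0.253 CPM per kb, at percentile 5.65 of the tested genes. The ranks of Hoxa5, Hoxb5, Hoxb6 and Hoxb3 were the same in the 4 groups.

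**Figure D1:**
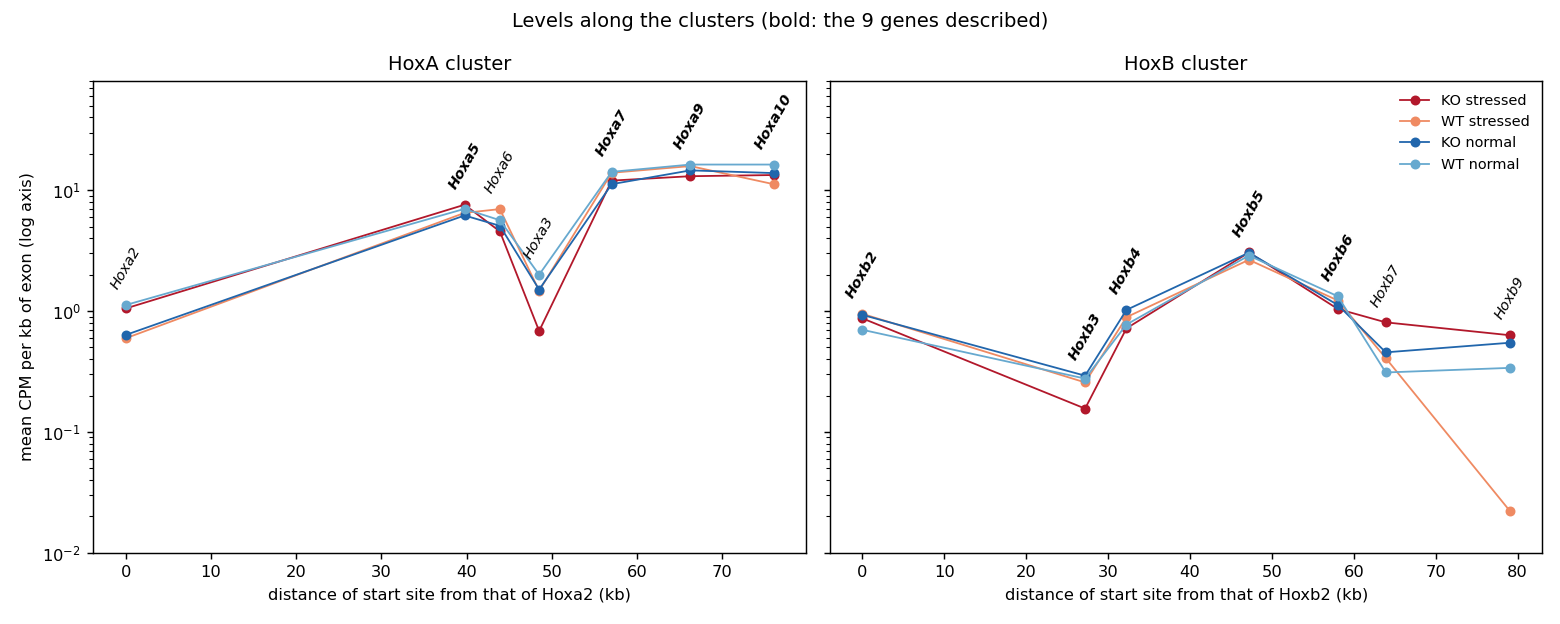
Mean CPM per kilobase of exon (log axis) of each HoxA and HoxB gene that passed the filter against the distance of its start site from that of Hoxa2 or Hoxb2 in kb, with 1 line per group of genotype label and condition; the 9 genes described are in bold. Hoxa7, Hoxa9 and Hoxa10 form the highest block of HoxA (group means of 11.2 to 16.3 CPM per kb), and Hoxb5 is the highest gene of HoxB (2.66 to 3.05 CPM per kb).

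Some members share exon sequence with antisense genes, and whether reads were counted by strand is not given in the sources used here. Hoxb3os lies opposite 52.9% of the exon bases of Hoxb3 and 27.3% of those of Hoxb2, and Hoxaas3 lies opposite 20.4% of those of Hoxa7. Hoxb5 shares 3.59% with Hoxb5os on the opposite strand. Hoxa9 shares 1.52% with Mir196b, which is not antisense but lies on the same strand. The other 4 members share none. Divided by unshared exon length alone, Hoxa7 would reach 16.1, Hoxa9 15.3, Hoxb5 3.03, Hoxb2 1.17 and Hoxb3 0.537 CPM per kb. This leaves Hoxb3 lowest and moves Hoxa7 above Hoxa9. It also moves Hoxb2 above Hoxb4 (0.861), to just below Hoxb6 (1.19). Levels of Hoxb2, Hoxb3 and Hoxa7 are therefore uncertain in this respect.

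The sequences before the start sites were examined for 5 of the 9 members, those held in the RefSeq promoter table of GRCm38.p6 (the same build as mm10). The 250 bases upstream of the start are printed for Hoxa10, Hoxa5 and Hoxb4, the 3 genes whose window adjoins the start of the GENCODE gene model used for the levels. The RefSeq starts of Hoxa7 and Hoxa9 and a further start of Hoxa10 lie inside the GENCODE genes. Their windows do not adjoin the outermost start of the gene model and are not printed. Capitals mark the single motif match found in the printed windows.
Hoxa10 (chr6:52240855-52241104, minus strand): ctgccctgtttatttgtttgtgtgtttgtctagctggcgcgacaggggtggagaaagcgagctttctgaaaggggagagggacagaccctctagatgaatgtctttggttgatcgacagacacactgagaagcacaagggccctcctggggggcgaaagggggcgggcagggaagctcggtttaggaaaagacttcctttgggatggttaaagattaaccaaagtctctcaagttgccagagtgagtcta
Hoxa5 (chr6:52204588-52204837, minus strand): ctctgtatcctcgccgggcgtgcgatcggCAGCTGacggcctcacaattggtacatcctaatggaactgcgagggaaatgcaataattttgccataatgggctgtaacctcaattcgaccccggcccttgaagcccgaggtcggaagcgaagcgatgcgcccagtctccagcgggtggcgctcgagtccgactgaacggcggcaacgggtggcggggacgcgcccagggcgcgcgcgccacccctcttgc
Hoxb4 (chr11:96318017-96318266, plus strand): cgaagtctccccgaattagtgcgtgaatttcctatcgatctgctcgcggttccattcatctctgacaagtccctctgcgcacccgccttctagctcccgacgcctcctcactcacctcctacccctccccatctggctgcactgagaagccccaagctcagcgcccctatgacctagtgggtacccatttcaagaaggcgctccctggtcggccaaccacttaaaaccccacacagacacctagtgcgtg
The Hoxa5 window held 28 CpG dinucleotides, the Hoxb4 window 14 and the printed Hoxa10 window 7, against a median of 6 over 32851 windows of the table. Short motifs were searched on both strands of each window. The TATA box, searched as TATAAA, occurred in 12.4% of all windows. The E-box forms that E proteins bind were searched as CAGCTG, which occurred in 13% of windows, and as the related form CACCTG, which occurred in 17.2%. A site bound by HOX with PBX proteins, TGATTNAT, occurred in 2.82% of windows, and a MEIS site, written TGACAG, in 15.9%. Hoxa5 held the first E-box form at position -221 from its start. The Hoxa10 window not printed held the letters TATAAA at -160, on the strand opposite to the gene. None of the other searched letters occurred in the windows of these 5 genes.

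The level of each member in every library is given next on the log2 CPM scale, on which 1 unit is a 2-fold difference. Hoxa9 stood at 6.27 and 6.09 in KO-labelled stressed libraries, 6.41 and 6.52 in WT-labelled stressed, 6.22, 6.44 and 6.37 in KO-labelled normal and 6.44, 6.42 and 6.65 in WT-labelled normal libraries. The KO-labelled stressed libraries were thus below both WT-labelled stressed libraries, while the normal groups overlapped. Hoxa10, a factor that influences megakaryocytic and erythroid output in mouse, stood at 5.45 and 5.44 in KO-labelled stressed, 5.15 and 5.24 in WT-labelled stressed, 5.64, 5.67 and 5.13 in KO-labelled normal and 5.46, 5.92 and 5.79 in WT-labelled normal libraries. Its WT-labelled stressed libraries lay below all WT-labelled normal ones and below both KO-labelled stressed ones. Hoxa7 stood at 5.14 and 5.08 in KO-labelled stressed, 5.52 and 5.10 in WT-labelled stressed, 4.73, 5.06 and 5.20 in KO-labelled normal and 5.37, 5.39 and 5.29 in WT-labelled normal libraries. All 3 KO-labelled normal libraries were below all 3 WT-labelled normal ones. Hoxa5 stood at 3.57 and 4.05 in KO-labelled stressed, 3.73 and 3.47 in WT-labelled stressed, 3.65, 3.21 and 3.70 in KO-labelled normal and 3.93, 3.62 and 3.58 in WT-labelled normal libraries. Its groups overlapped in each comparison.

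Of the HoxB genes, Hoxb5 was the steadiest, at 3.04 and 3.14 in KO-labelled stressed, 2.72 and 3.04 in WT-labelled stressed, 3.22, 2.80 and 3.19 in KO-labelled normal and 2.997, 2.988 and 3.026 in WT-labelled normal libraries. Its whole range was 0.50 on the log2 scale, a 1.42-fold span, and its groups overlapped in each comparison. Hoxb4 stood at 1.05 and 0.69 in KO-labelled stressed, 0.92 and 1.42 in WT-labelled stressed, 1.65, 1.34 and 1.14 in KO-labelled normal and 1.27, 1.23 and 0.26 in WT-labelled normal libraries. WT-labelled normal library C was the lowest of the 10, and the KO-labelled stressed libraries lay below the KO-labelled normal ones. Hoxb6 stood at 1.08 and 0.98 in KO-labelled stressed, 1.36 and 1.16 in WT-labelled stressed, 1.35, 0.87 and 1.16 in KO-labelled normal and 1.10, 1.42 and 1.57 in WT-labelled normal libraries. Its KO-labelled stressed libraries were both below the WT-labelled stressed ones, and its normal groups overlapped.

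Hoxb2 stood at 1.57 and 1.63 in KO-labelled stressed, 2.14 and 1.14 in WT-labelled stressed, 1.76, 0.95 and 2.14 in KO-labelled normal and 1.05, 1.48 and 1.30 in WT-labelled normal libraries. Its spread within groups was as wide as that between them, and the groups overlapped throughout. Hoxb3 stood at -0.48 and -0.71 in KO-labelled stressed, 0.00 and 0.24 in WT-labelled stressed, 0.76, -0.93 and 0.58 in KO-labelled normal and -0.13, 0.62 and 0.10 in WT-labelled normal libraries. Both KO-labelled stressed libraries were below both WT-labelled stressed ones, but the lowest library of all was KO-labelled normal B. That library also held the lowest of the 10 values of Hoxa5, Hoxb2 and Hoxb6.

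**Figure D2:**
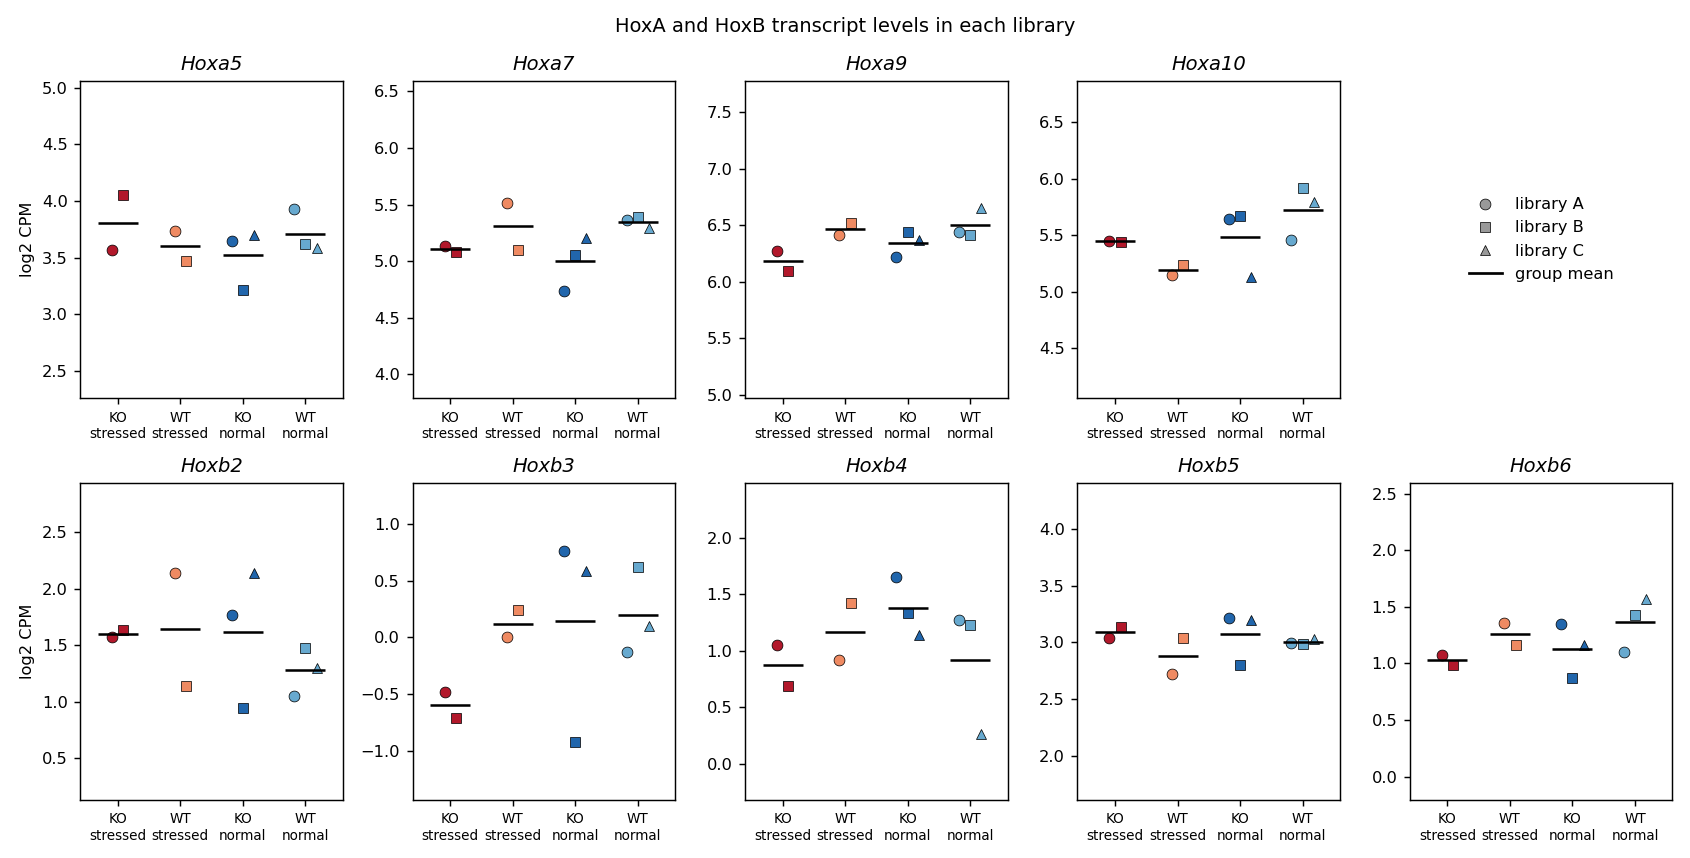
Deposited log2 CPM of the 9 genes in each library by group, with symbols for libraries A, B and C and a bar at the group mean; all panels span the same log2 distance. Points of the compared groups overlap in each comparison for Hoxa5, Hoxb2 and Hoxb5, while each other gene has groups apart in some comparison. Hoxa9 is lower in both KO-labelled than in both WT-labelled stressed libraries, Hoxa7 is lower in all 3 KO-labelled than in all 3 WT-labelled normal libraries, and Hoxb3 has the widest range (1.69 log2 units).

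The precision differed widely between members. Hoxa9 rested on an estimated 1758 to 3166 reads per library and varied within groups with an SD of 0.115 on the log2 scale (6 residual degrees of freedom). Hoxb3 rested on 15.7 to 53.2 reads, with an SD of 0.588. The SD within groups was above that from counting alone for every member, closest for Hoxb6 (0.205 against 0.175) and farthest in proportion for Hoxa10 (0.224 against 0.040). Reads without molecular identifiers are not independent molecules, so the counting values are lower limits.

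Summed over the 4 HoxA members, levels were 168 and 162 CPM in KO-labelled stressed, 180 and 175 in WT-labelled stressed, 164, 181 and 167 in KO-labelled normal and 188, 200 and 207 in WT-labelled normal libraries. The WT-labelled normal libraries held the 3 highest sums. The 5 HoxB members summed to 16.1 and 16.1 CPM in KO-labelled stressed, 16.4 and 16.5 in WT-labelled stressed, 20.1, 13.8 and 19.5 in KO-labelled normal and 15.5, 17.3 and 15.9 in WT-labelled normal libraries. Both extremes of the HoxB sum thus lay within the KO-labelled normal group. Hoxa9 alone supplied 38.3% to 47.9% of the reads of the 9 genes. With group means removed, members of a cluster did not share a common deviation in HoxA (median Pearson r of -0.23 over 6 pairs, from -0.72 for Hoxa5 with Hoxa9 to 0.12), while r had a median of 0.30 over the 10 HoxB pairs, with the highest value, 0.77, for Hoxb3 with Hoxb5. These correlations rest on 10 libraries that share groups and scaling, and they are given as a description.

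How KO-labelled differ from WT-labelled HSCs in the stressed condition was compared with limma, and none of the 9 members was called at an adjusted p under 0.05 (adjusted over all 15143 genes), where 0.145% of all genes tested were. Hoxa9 averaged 6.18 ± 0.13 in KO-labelled and 6.46 ± 0.08 in WT-labelled stressed HSCs (SD, n = 2 each), a log2 difference of -0.28 (SE 0.12, limma adjusted p = 0.54). Its 95% interval reached from -0.55 to -0.01, and it was the only member with an unadjusted p under 0.05, a level passed by 8.88% of all genes. Differences were positive for 3 members and negative for 6, with a median of -0.20 against 0 over all genes tested. The groups did not overlap for Hoxa10 (0.25, SE 0.20), which was higher in KO-labelled cells, nor for Hoxa9, Hoxb3 (-0.72, SE 0.74) and Hoxb6 (-0.23, SE 0.43), which were lower; 39.1% of all genes had groups apart in one direction or the other. With 2 libraries a group the intervals were wide, and 5 of 9 lay within 1 log2 unit of 0. B and plasma cell marker genes, of which 8 of 11 passed the filter, summed to 216 CPM in each KO-labelled stressed library, against 49.8 and 49.9 CPM in WT-labelled stressed libraries. Igkc and Jchain of that list were called higher in KO-labelled stressed cells, and the part of these genes in the Hox differences was not tested. In bulk RNA, fewer cells of a type and less RNA per cell cannot be told apart.

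In the normal condition, none of the 9 members was called between KO-labelled and WT-labelled cells, where 1.56% of all genes tested were. Hoxa7 averaged 4.998 ± 0.241 in KO-labelled and 5.350 ± 0.051 in WT-labelled normal HSCs (SD, n = 3 each), a log2 difference of -0.35 (SE 0.15, 95% interval -0.68 to -0.02, limma adjusted p = 0.33). It was the only member whose groups did not overlap, which held for 19.5% of all genes, and the only one with an unadjusted p under 0.05, which held for 13.9%. Without KO-labelled normal library A, the library set apart on the further axis, the Hoxa7 difference was -0.22. The other 3 HoxA members differed by -0.24 (Hoxa10), -0.19 (Hoxa5) and -0.16 (Hoxa9), and Hoxb4 had a positive difference (0.45, SE 0.42). Single libraries moved these values: without WT-labelled normal library C, the lowest for Hoxb4, its difference was 0.13, and without KO-labelled normal library C that of Hoxa10 was -0.07. That of Hoxa9 was -0.10 without KO-labelled normal library A and -0.09 without WT-labelled normal library C. Hoxb5 differed by 0.07 with a 95% interval of -0.40 to 0.53. The median over the members was -0.16, against -0.01 over all genes.

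Stressed were compared with normal HSCs within each genotype label. In KO-labelled cells none of the 9 members was called, where 4.5% of all genes tested were, and limma adjusted p ranged from 0.52 to 0.99. At an unadjusted p under 0.05 there were likewise 0 members, where 17.9% of all genes passed. The largest differences were those of Hoxb3 (-0.74, SE 0.68) and Hoxb4 (-0.50, SE 0.47), both low-level genes. The Hoxb3 difference was -1.27 without KO-labelled normal library B and -0.43 without KO-labelled normal library A, and that of Hoxb4 was -0.32 without KO-labelled stressed library B. Hoxb4 was the only member whose groups did not overlap, a separation found for 33.1% of all genes. Hoxa9 differed by -0.16 (95% interval -0.41 to 0.09) and Hoxa10 by -0.03 (-0.44 to 0.37) with all libraries, so changes of 1 log2 unit lay outside the intervals of both.

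In WT-labelled cells none of the 9 members was called, where 3.3% of all genes tested were. Hoxa10 averaged 5.20 ± 0.06 in WT-labelled stressed (SD, n = 2) and 5.72 ± 0.23 in WT-labelled normal HSCs (SD, n = 3), a log2 difference of -0.53 (SE 0.18, 95% interval -0.93 to -0.13, limma adjusted p = 0.16). It was lower in 2 of 2 stressed libraries than in every normal library, a separation found for 36.4% of all genes, and its unadjusted p was under 0.05, as for 16.8% of all genes. Hoxa7 and Hoxa9 each differed by -0.04, with intervals of -0.41 to 0.33 and -0.29 to 0.21. Whether the change with stress differed between the genotype labels was tested as an interaction, and none of the 9 members was called, where 0.0198% of all genes tested were, and 0 had an unadjusted p under 0.05, where 9.15% of all genes did. Hoxa10 had the smallest p of the members, with a difference between the changes of 0.49 (SE 0.26, limma adjusted p = 0.59), which was 0.32 without KO-labelled normal library C. These comparisons share libraries: each group enters 2 of the 4 pairwise differences, so signs that recur between them are not independent. In stressed libraries the summed HSC marker genes were lower, and the summed megakaryocyte marker genes higher (1181 to 1233 CPM in KO-labelled and 1140 to 1150 in WT-labelled stressed, against 688 to 751 and 727 to 784 CPM in the normal libraries). Erythroid marker genes summed to 1600 to 1620 CPM in KO-labelled and 1632 to 1654 in WT-labelled stressed libraries, against 1696 to 1788 CPM in KO-labelled and 1779 to 1801 in WT-labelled normal ones. Of the 11 in that list, Car1, Hbb-bt and Hba-a1 were called lower with stress in WT-labelled cells (list median -0.90), and in KO-labelled cells Car1 was called lower and Gata1 higher. Of the 3 tested T and NK cell marker genes, Nkg7 was called higher with stress under both genotype labels. Gata3 and Cd4 were not called under either label. With stress, Gata3 differed by 0.03 in WT-labelled and -0.25 in KO-labelled cells, and Cd4, a low-level gene, by -4.36 and -3.55. Of the 11 tested granulocyte and monocyte marker genes, S100a8 and S100a9 were called lower with stress in KO-labelled cells (list median -0.18). Not all of that list moved this way. Mpo, Ctsg and Ly6c2 had higher means in KO-labelled stressed than in KO-labelled normal libraries and were not called. In WT-labelled cells none of the list was called with stress (list median 0.07). The part of these markers in the differences of the Hox genes was not tested.

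**Figure D3:**
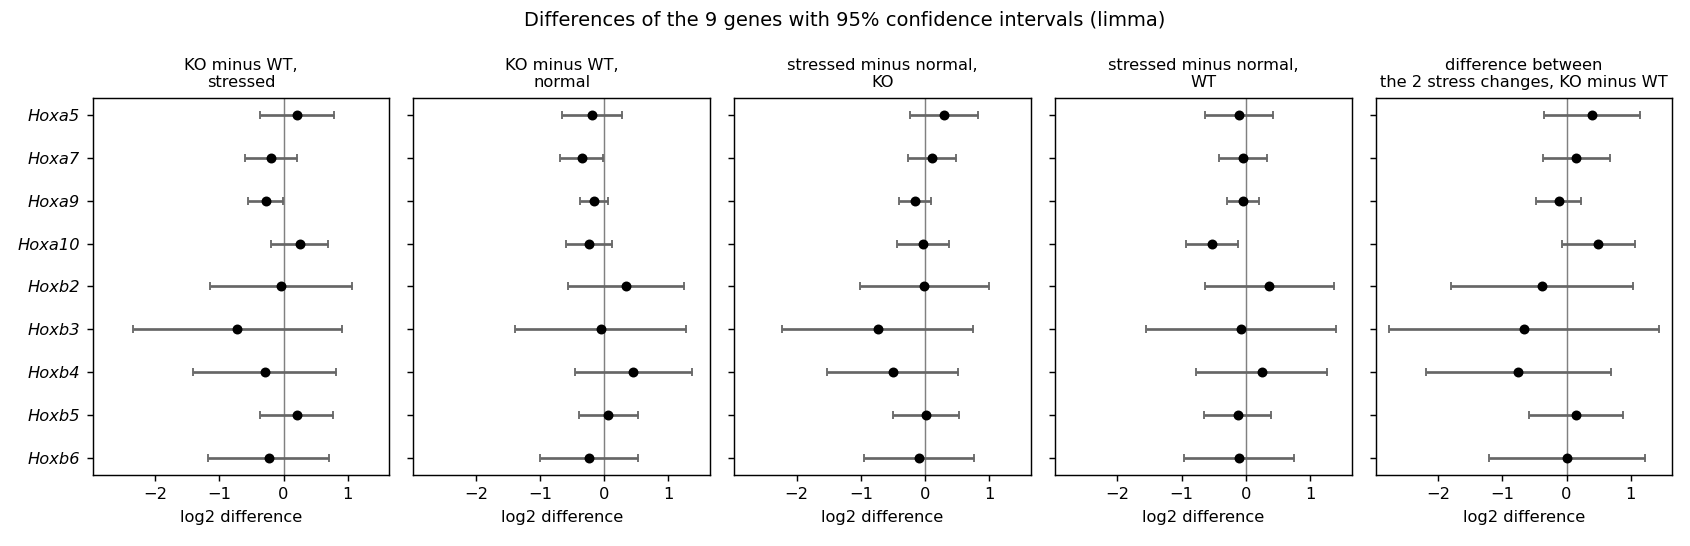
Log2 differences of the 9 genes (points) with 95% confidence intervals from limma (bars) in the 5 comparisons, KO-labelled minus WT-labelled, stressed minus normal, and the difference between the changes with stress. Intervals of the HoxA genes are narrow and those of Hoxb2, Hoxb3 and Hoxb4 wide. The intervals of Hoxa9 in stressed cells, Hoxa7 in normal cells and Hoxa10 in WT-labelled cells leave out 0 before adjustment for the genes tested, and none is called after it.

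Other Hox genes and other genes of the same clusters were read beside the members. Hoxa2, Hoxa3, Hoxa6, Hoxb7, Hoxb9 and Hoxc6 passed the filter, and Hoxa4 and Hoxb8 did not. Hoxa3, which lies between Hoxa6 and Hoxa7 by its annotated start, stood at 2.23 and 1.82 log2 CPM in KO-labelled stressed, 3.23 and 3.06 in WT-labelled stressed, 3.55, 2.91 and 2.99 in KO-labelled normal and 3.85, 3.56 and 3.30 in WT-labelled normal libraries. The KO-labelled stressed libraries were the lowest of the 10. Hoxa3 fell with stress in KO-labelled cells by 1.12 log2 units (SE 0.28, limma adjusted p = 0.047), the single Hox gene called in any comparison. This was 1 of the 6 other Hox genes tested in that comparison, where 4.5% of all genes were called. The call was lost whichever of the 10 libraries was left out (adjusted p up to 0.28, differences from -1.33 to -0.92). It shares 27.1% of its exon bases with other genes, among them Hoxaas2 and Hoxaas3 on the opposite strand. Against WT-labelled stressed HSCs, the KO-labelled ones differed by -1.12 as well (SE 0.31, limma adjusted p = 0.31), which was not called.

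Hoxb9 stood at 2.49 and 0.757 CPM in KO-labelled stressed libraries, while WT-labelled stressed library A had 0 reads and library B 0.0970 CPM. It was not called (limma adjusted p = 0.23), and at 0.569, 2.58 and 1.07 CPM in KO-labelled normal against 1.42, 0.416 and 0.784 CPM in WT-labelled normal libraries its groups overlapped. Hoxb9 also differed with stress in WT-labelled cells, by -4.26 (SE 1.10, limma adjusted p = 0.066), and in KO-labelled cells by 0.24. Neither was called. Hoxa6, the neighbour of Hoxa5, averaged 5.52 CPM per kb and had a difference of -0.61 for KO-labelled against WT-labelled stressed HSCs (SE 0.32, limma adjusted p = 0.62). Of 23 other listed genes of the clusters, most of them noncoding, 9 were in the table and 5 passed the filter: Hoxaas2, Hoxaas3, Hoxb3os, Hoxb5os and 5730596B20Rik, which the annotation gives as protein coding. None of these 5 was called in any comparison. Of 7 tested genes that flank the clusters, 1 was called, with stress in WT-labelled cells, where 3.3% of all genes were. Tax1bp1 rose by 0.20 (limma adjusted p = 0.0495, SE 0.05), and the call was lost without either WT-labelled stressed library (adjusted p of 0.19 and 0.18), any WT-labelled normal one (0.11 to 0.14) or either KO-labelled stressed one (0.077 and 0.076).

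The DNA-binding partners of HOX factors were described next. Meis1, which encodes the cofactor that binds DNA with HOXA9, stood at 9.24 to 9.54 log2 CPM in all 10 libraries and was called in no comparison. Of 10 tested TALE genes, 1 was called, with stress in KO-labelled cells, where 4.5% of all genes were. Meis3 had 0.268 and 0.718 CPM in KO-labelled stressed libraries, against 8.62, 6.79 and 5.11 CPM in KO-labelled normal libraries (log2 difference -3.93, SE 0.78, limma adjusted p = 0.015). Without KO-labelled stressed library A the adjusted p was 0.15. Meis3 stood at 0.349 and 2.99 CPM in WT-labelled stressed and at 7.33, 4.79 and 9.54 CPM in the 3 WT-labelled normal ones, a difference that was not called (limma adjusted p = 0.088).

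Among 22 tested genes of MLL complexes and their elongation partners, 3 were called with stress or genotype. These were 2 genes with stress in KO-labelled cells, 1 with stress in WT-labelled cells and 1 between the genotype labels in normal cells, where 4.5%, 3.3% and 1.56% of all genes were called. Mllt3, which encodes the chromatin reader AF9 and is also one of the HSC marker genes, stood at 6.89 and 6.87 log2 CPM in KO-labelled stressed, 6.99 and 7.04 in WT-labelled stressed, 7.66, 7.66 and 7.65 in KO-labelled normal and 7.52, 7.65 and 7.44 in WT-labelled normal libraries. All 4 stressed libraries were below all 6 normal ones. In KO-labelled cells Mllt3 fell with stress by 0.78 (SE 0.08, limma adjusted p = 0.00021). Among WT-labelled cells it fell by 0.52 (SE 0.08, limma adjusted p = 0.0038), and both calls held in all 21 alternatives. Kmt2a, which encodes the MLL1 methyltransferase itself, stood at 7.75 and 7.64 in KO-labelled stressed libraries, against 8.04, 8.08 and 8.11 in KO-labelled normal libraries, and fell by 0.38 (SE 0.07, limma adjusted p = 0.0078). Without KO-labelled stressed library B the adjusted p was 0.098. In WT-labelled cells Kmt2a stood at 8.03 and 8.11 in stressed and at 8.23, 8.36 and 8.32 in normal libraries, which was not called (limma adjusted p = 0.096). Dpy30, a core subunit of these methyltransferases, was higher by 0.49 in KO-labelled than in WT-labelled normal HSCs (SE 0.09, limma adjusted p = 0.015). It stood at 6.74, 6.56 and 6.59 in the KO-labelled and at 6.14, 6.10 and 6.20 in the WT-labelled libraries, and the call was lost without KO-labelled library A or WT-labelled library A or B (adjusted p 0.053 to 0.076). The list's median differences, KO-labelled against WT-labelled and stressed against normal, stood between -0.09 and 0.01, beside -0.01 to 0.01 over all genes.

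None of the 21 tested genes of Polycomb complexes and the opposing demethylases was called in any of the 5 comparisons. Among them, Asxl1 came closest, with a difference of -0.42 in KO-labelled against WT-labelled normal HSCs (limma adjusted p = 0.075). Of 13 tested genes from a list of other regulators of Hox transcription, 1 was called between the genotype labels in normal cells (1.56% of all genes), 2 with stress in KO-labelled cells (4.5%) and 1 with stress in WT-labelled cells (3.3%). Npm1, whose product nucleophosmin is mutated in leukemias with high HOX levels in humans, was higher by 0.31 in KO-labelled than in WT-labelled normal HSCs (SE 0.05, limma adjusted p = 0.0095). Without WT-labelled normal library C the adjusted p was 0.057. Ctcf, which encodes the protein that insulates domains of the Hox clusters, rose by 0.43 (SE 0.10, limma adjusted p = 0.041) with stress in KO-labelled cells, at 7.53 and 7.60 in stressed and 7.16, 6.96 and 7.28 in normal libraries. Its call was lost without either KO-labelled stressed library (adjusted p of 0.14 and 0.24), without KO-labelled normal library A (0.070) or B (0.093), and without WT-labelled normal library C (0.066).

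Low-level genes made up the other calls of that list. Lin28b, which encodes a fetal-type RNA-binding protein, had 0.132 CPM and 0 reads in KO-labelled stressed libraries, against 4.33, 3.10 and 2.08 CPM in KO-labelled normal libraries (limma adjusted p = 0.028). The call was lost without KO-labelled stressed library B (adjusted p = 0.21), any KO-labelled normal library (0.063 to 0.078) or WT-labelled normal library B (0.051) or C (0.052). Cyp26b1, which encodes a retinoic acid degrading enzyme, had 0 reads and 1.25 CPM in WT-labelled stressed libraries, against 5.44, 10.4 and 6.97 CPM in WT-labelled normal libraries (limma adjusted p = 0.039). This call was lost without any WT-labelled normal library (adjusted p 0.099 to 0.13), WT-labelled stressed library A (0.059), either KO-labelled stressed library (0.069 and 0.068) or KO-labelled normal library B (0.056) or C (0.055). Beyond single libraries, modelling the variance without a trend on the mean level ended the calls of Hoxa3, Tax1bp1, Meis3, Kmt2a, Dpy30, Npm1, Ctcf, Lin28b, Cyp26b1, Bcl2, Cd34 and Mecom, and kept those of Mllt3 and Erg (adjusted p of 0.070 to 0.24 for the calls lost). Fitting only the groups compared kept the calls of Mllt3, Meis3 and Cd34 and ended the others (0.054 to 0.18). Without the filter on low values the calls of Hoxa3 (0.068), Tax1bp1 (0.071), Mecom (0.051), Cyp26b1 (0.064), Ctcf (0.059) and Bcl2 (0.055) were lost. That of Hoxa3 was also lost with library weights (0.058), those of Hoxa3 and Tax1bp1 at log2(CPM + 1) (0.054 and 0.056), and that of Tax1bp1 with a floor of 3 reads (0.052) and with trimmed mean scaling (0.056).

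**Figure D4:**
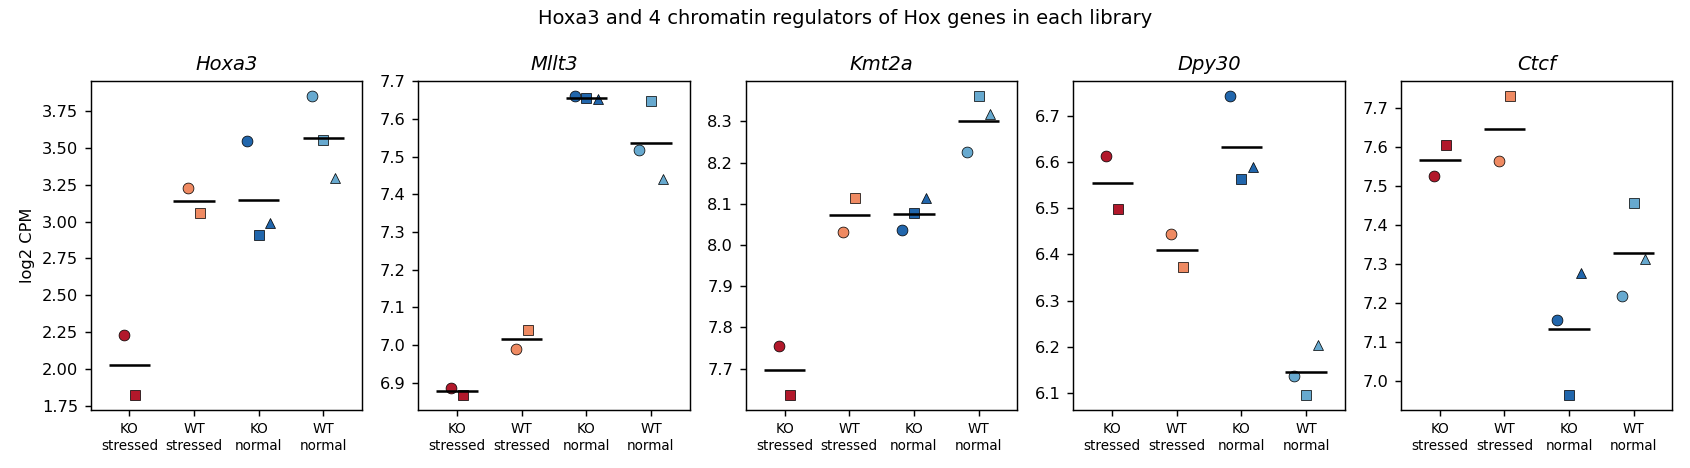
Deposited log2 CPM of Hoxa3 and of the chromatin regulator genes Mllt3, Kmt2a, Dpy30 and Ctcf in each library by group, with circles, squares and triangles for libraries A, B and C and a bar at the group mean; each panel has its own axis range. Mllt3 lies below 7.1 in all stressed libraries and above 7.4 in all normal ones, and Hoxa3 and Kmt2a are lowest in the 2 KO-labelled stressed libraries.

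Genes described as targets of HOXA9 or MEIS1 in mouse progenitors or leukemia were the last list, with 20 of 20 tested. None was called between KO-labelled and WT-labelled HSCs in either condition. With stress in KO-labelled cells 1 rose and 1 fell, where 4.5% of all genes were called, and with stress in WT-labelled cells 1 rose and 1 fell, where 3.3% were. In KO-labelled cells Bcl2, the survival gene, rose by 0.54 (SE 0.13, limma adjusted p = 0.038), and Erg, a stem cell transcription factor gene, fell by 0.55 (SE 0.09, limma adjusted p = 0.0071). The Erg call was lost without KO-labelled stressed library B (adjusted p = 0.078). The Bcl2 call was lost without either KO-labelled stressed library (adjusted p of 0.20 and 0.17), KO-labelled normal library A (0.088) or C (0.069) or any WT-labelled normal library (0.055 to 0.060). With stress in WT-labelled cells, Cd34, the progenitor surface marker, rose by 0.32 (SE 0.06, limma adjusted p = 0.010), and Mecom, which encodes the HSC factor EVI1, fell by 0.41 (SE 0.09, limma adjusted p = 0.034). Without WT-labelled stressed library A the adjusted p was 0.087 for Cd34 and 0.25 for Mecom. The Mecom call was also lost without either KO-labelled stressed library (0.060 and 0.059) or any WT-labelled normal library (0.053 to 0.12). Cd34 and Mecom are also HSC marker genes. The list's median was -0.09 and -0.14 for KO-labelled against WT-labelled stressed and normal HSCs, and 0.03 and -0.04 with stress in KO-labelled and WT-labelled cells, beside -0.01 to 0.01 over all genes.

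The genes whose levels followed those of Hoxa9 most closely over the 10 libraries, Hox genes left out, were Clk1 (Pearson r of 0.92), which encodes a splicing kinase, Gm16008 (0.92) and Map3k14 (0.90), which encodes the kinase NIK. Those that followed Hoxb4 were Ttll7 (0.93), RP24-131G14.10 (0.92) and Gm11574 (0.88). These are the highest of 15143 values each over 10 libraries that share 4 groups and the same scaling, and they are given as a description.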

How the data were processed

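The deposited table holds log2 CPM values for 20270 genes in 10 libraries, which the authors made from reads aligned to mm10 with Bowtie2 and counted with featureCounts, both named without a version by the submitters' processing notes. Only the table's name mentions limma voom. The filter, the annotation and the strand setting behind the counts are not given in the sources used here. Over the 13728 highest ranks, where all libraries are above a log2 CPM of 0, sorted values differ between libraries by at most 0.055, as quantile normalization would give, while lower ranks differ by more. No source used here records that step. The common lowest value, -5.90, was read as 0 reads. Since counts were not used here, depth was estimated from tied low values (the steps from 10 to 100 reads).

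Genes with a log2 CPM above 0 in at least 2 libraries were fitted with limma 3.58.1 in R 4.3.3 as 4 group means over all 10 libraries, with variances moderated along the mean level and 6 residual degrees of freedom. No replicate block was used, since libraries of the same letter did not deviate together over all tested genes. P-values were adjusted by the Benjamini-Hochberg method over all 15143 genes of a comparison and called under 0.05. The model was tested on simulated data. Exon lengths come from GENCODE vM21, which held 20199 of the table's identifiers. Figures were drawn in Python 3.11.15 with matplotlib 3.10.9.

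The members and gene lists were chosen with earlier results of these data known. The members are always named, as are other Hox genes and other listed genes of the clusters that passed the filter; of each other list, up to 4 genes per comparison with the smallest p, and for Hoxa9 and Hoxb4 the 3 genes with the highest Pearson r. Alternatives covered the variance trend, robust moderation, filters, a pseudocount of 1 CPM, a floor of 3 reads, other scalings, library weights, a replicate block, the groups in the fit and each library left out.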

Additional observations from a re-analysis of the deposited data

How the results depend on the processing

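The count of HoxA and HoxB members called was 0 in every comparison under each alternative run, with limma adjusted p of the members never under 0.0899 (Hoxa10 with stress in WT-labelled cells, without KO-labelled normal library C). Over 11 alternatives, 466 of 471 member differences kept their sign, and with 1 library left out 416 of 450 did. The replicate letters did not pair the libraries (correlations of same-letter deviations between -0.024 and 0.005), and the replicate block called 0 members and 11, 181, 447, 289 and 2 genes in all for KO against WT (stressed, then normal), stressed against normal (KO, then WT) and the interaction. It ended the calls of Tax1bp1 (adjusted p = 0.082), Mecom (0.061), Cyp26b1 (0.074), Ctcf (0.064) and Lin28b (0.079). Signs changed under the block for Hoxa9 (0.00306) and Hoxb3 (0.012) with stress in WT cells and Hoxb2 (0.12) with stress in KO cells, under library weights for Hoxa10 with stress in KO cells (0.0052), and at log2(CPM + 1) for Hoxb3 in KO against WT normal cells (0.011); the cause was not tested. With 1 library left out, some differences changed sign. Not all of these were close to 0 with all libraries: Hoxb2 stood at 0.36 with stress in WT cells and at -0.38 in the interaction. The ranges with 1 library left out were as follows. KO against WT in stressed cells: Hoxa5 -0.035 to 0.45, Hoxa7 -0.41 to 0.0071, Hoxb2 -0.54 to 0.46. KO against WT in normal cells: Hoxb3 -0.37 to 0.48, Hoxb5 -0.0087 to 0.20. Stress in KO cells: Hoxa7 -0.022 to 0.21, Hoxa10 -0.21 to 0.063, Hoxb2 -0.35 to 0.25, Hoxb5 -0.12 to 0.092, Hoxb6 -0.22 to 0.013. Stress in WT cells: Hoxa5 -0.24 to 0.024, Hoxa7 -0.25 to 0.17, Hoxa9 -0.094 to 0.033, Hoxb2 -0.14 to 0.86, Hoxb3 -0.24 to 0.14, Hoxb4 -0.080 to 0.50, Hoxb5 -0.29 to 0.035. Interaction: Hoxa7 -0.056 to 0.36, Hoxb2 -0.88 to 0.12, Hoxb5 -0.017 to 0.30, Hoxb6 -0.12 to 0.14. Counts of all genes called ranged from 0 to 51, 45 to 275, 249 to 727, 251 to 612 and 1 to 26 in the same order of comparisons. No fit of only the groups compared exists for the interaction, which uses all 4. Groups of 2 left with 1 library borrow the spread of the others. Reads were fewest for Hoxb3, Hoxb4, Hoxb6 and Hoxb2, and the SD within groups exceeded that from counting for each of them.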
